A study of Mus musculus with 2 samples.

Results

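The miR-23, miR-27 and miR-24 clusters are 2 short genomic loci of the mouse that encode the same 3 microRNA families. They were read through the 10 array probes that carry the names of their mature products, out of 1892 mouse microRNA probes. These are 5 guide arms (mmu-miR-23a-3p, mmu-miR-23b-3p, mmu-miR-27a-3p, mmu-miR-27b-3p and mmu-miR-24-3p) and 5 opposite arms (mmu-miR-23a-5p, mmu-miR-27a-5p, mmu-miR-27b-5p, mmu-miR-24-1-5p and mmu-miR-24-2-5p). Unwounded skin and unwounded oral mucosa were each measured on 1 single-colour (Cy5) array, with 2 µg of total RNA pooled from 3 animals. Per the methods the mice were female Balb/c of 8 to 10 weeks, and no genetic change or treatment is named for either tissue. The labels name the tissues as skin and oral mucosa while the study's text also speaks of epithelium, so whether tissue beneath the epithelium entered the pools is unclear. With 1 array per tissue there was no replicate and no test, and the size rule used throughout asks for a log2 difference of at least 1, up or down.

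A microRNA precursor is a hairpin, and both of its arms can be cut out as short RNAs. The guide arm is the one mainly loaded into Argonaute, where bases 2 to 8, the seed, pair with messenger RNAs, while the opposite arm is mostly degraded. The families of these clusters are broadly expressed. Together they are known as regulators of endothelial sprouting, miR-23 is known for repressing glutaminase, miR-27 for restraining adipocyte formation, and miR-24 for a part in keratinocyte differentiation.

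On the GRCm38.p6 assembly the a cluster lies on the plus strand at chr8:84208518-84208921, within 404 bases, in the order Mir23a, Mir27a, Mir24-2. Its nearest annotated neighbours are Mir181d and Mir181c before it and Zswim4 after it. The b cluster lies on the plus strand at chr13:63300484-63301275, within 792 bases, in the order Mir23b, Mir27b, Mir24-1. It falls inside the span of Aopep, an aminopeptidase gene, with Fancc next to it. The 6 precursors yield guide arms of which miR-24-3p is identical from both loci, so its single probe cannot tell the clusters apart, while each opposite arm and each miR-23 and miR-27 guide has a probe of its own.

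The mature sequences show why the pairs are read side by side. They were taken from the array's own target list, run 5′ to 3′, and carry the seed in capitals. Of the 10, 9 had an entry in the RefSeq table and all 9 were identical to it. The guide arms are these.
mmu-miR-23a-3p: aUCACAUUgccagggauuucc
mmu-miR-23b-3p: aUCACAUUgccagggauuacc
mmu-miR-27a-3p: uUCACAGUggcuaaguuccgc
mmu-miR-27b-3p: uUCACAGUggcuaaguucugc
mmu-miR-24-3p: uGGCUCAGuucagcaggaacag

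Counted from 1 at the 5′ end, miR-23b-3p differs from miR-23a-3p by U19A and miR-27b-3p from miR-27a-3p by C19U. Each pair is 21 bases long, identical over the first 18, and shares its seed, UCACAUU for miR-23 and UCACAGU for miR-27. No other probe of the array has either seed. The seed of miR-24-3p, GGCUCAG, is shared by 5 other probes (miR-5124b, miR-6361, miR-6369, miR-6410 and miR-6413), of which 0 were detected. The opposite arms differ more between the loci.
mmu-miR-23a-5p: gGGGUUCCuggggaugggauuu
mmu-miR-27a-5p: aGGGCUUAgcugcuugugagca
mmu-miR-27b-5p: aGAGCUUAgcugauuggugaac
mmu-miR-24-1-5p: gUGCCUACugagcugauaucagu
mmu-miR-24-2-5p: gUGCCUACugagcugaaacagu

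The last 2 share the seed UGCCUAC and their first 16 bases, and they have 23 and 22 bases. The precursors below are those on which the results turn, with both mature arms in capitals and the opposite arm first. They are RefSeq sequences at chr8:84208518-84208592 (Mir23a), chr8:84208672-84208758 (Mir27a) and chr13:63300712-63300784 (Mir27b) of GRCm38.p6, plus strand.
Mir23a: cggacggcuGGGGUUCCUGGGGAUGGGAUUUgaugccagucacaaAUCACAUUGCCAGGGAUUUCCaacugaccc
Mir27a: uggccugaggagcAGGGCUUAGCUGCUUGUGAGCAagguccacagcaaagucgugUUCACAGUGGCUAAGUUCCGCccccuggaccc
Mir27b: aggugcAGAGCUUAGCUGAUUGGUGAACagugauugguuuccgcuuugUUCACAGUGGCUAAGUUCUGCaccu

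**Figure D1:**
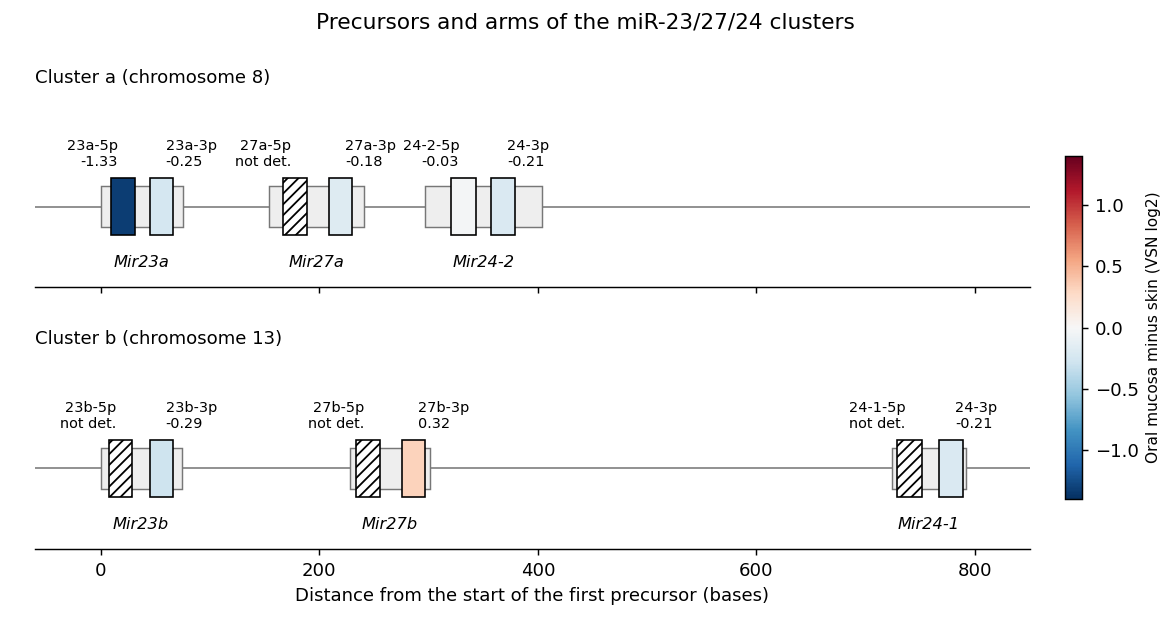
Map of the 2 clusters to scale, with distance in bases from the start of the first precursor on the x axis. Grey boxes are precursors, coloured boxes mature arms shaded by the VSN log2 difference (oral mucosa minus skin), and hatched boxes arms that neither array detected. The guide arms are pale in both clusters, from -0.29 to 0.32, and miR-23a-5p alone is dark, at -1.33.

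Each probe was printed on 2 repeat spots per array, and the signal is the brightness of a spot in scanner units with no background taken out. The 16 empty spots averaged 36.4 for skin and 51.9 for oral mucosa, and a probe was called detected above 3 SD over that mean, at 59.9 for skin and 71.8 for oral mucosa. Variance Stabilizing Normalization (VSN) put the arrays on 1 scale by fitting each an offset and a factor, and its values behave like log2 where signals are high. The oral mucosa array had 1.37 times the scale of the skin array, so equal VSN values go with a higher raw signal on the oral mucosa array. Every difference is the VSN value of oral mucosa minus that of skin, in log2 units, and the SD beside it combines the repeat spots of both arrays, which is technical error only. Levels of different probes were not compared, since each probe has its own binding strength. In bulk tissue, fewer cells of a type and less RNA per cell cannot be told apart.

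All 5 guide arms and 2 of the 5 opposite arms were detected on both arrays, and the other 3 opposite arms on neither. Of these 7 detected members, 1 passed the size rule, miR-23a-5p, which was lower in oral mucosa, and 0 were higher by the rule. That is 14.3% of them, beside 28.5% of the 562 probes detected on at least 1 array, 14.8% lower in oral mucosa and 13.7% higher. The median difference of the detected members was -0.21, as was that of the 5 guide arms, and over all detected probes it was 0.00. The 25th and 75th percentiles of all detected probes were -0.50 and 0.53. On the VSN scale the repeat spots of the 2 arrays did not overlap for 6 of the 7 detected members, the exception being miR-24-2-5p. Over all 394 probes detected on both arrays that share was 67.8%.

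**Figure D2:**
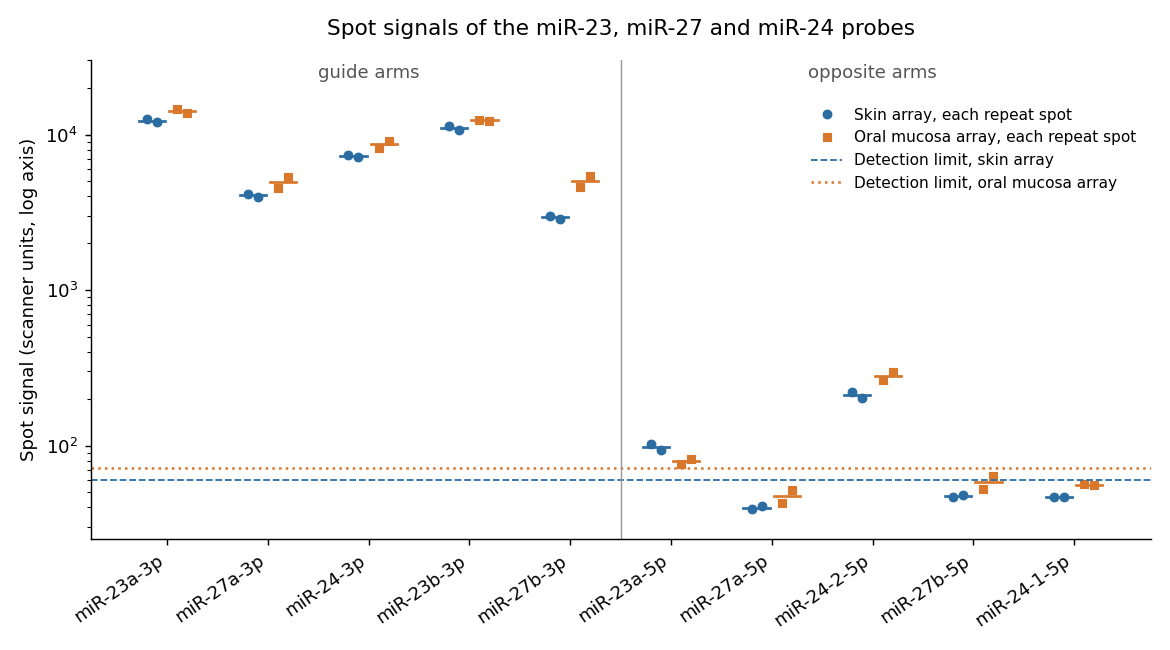
Signal of each repeat spot of the 10 members for skin (circles) and oral mucosa (squares), in scanner units on a log axis, with short lines at the array means and long lines at the detection limits of 59.9 and 71.8. The guide arms lie between 2862 and 14596, far above both limits, while the opposite arms lie between 39.1 and 297. The values are as scanned, before the VSN scale of 1.37 between the arrays is taken out.

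The probes of the 2 miR-23 guides, the arms known for repressing glutaminase, gave closely similar VSN differences. Their targets differ at 1 base, and how far each probe also reads the other RNA was not measured. The skin spots of miR-23a-3p read 12526 and 11981, and its oral mucosa spots 14596 and 13711. Its mean signal was 12253 ± 386 (SD of 2 spots) in skin and 14153 ± 625 in oral mucosa. The oral mucosa spots were the higher in scanner units, by a ratio of 1.16, which is less than the scale of 1.37 between the arrays. On the VSN scale the difference of miR-23a-3p was therefore -0.25 (SD 0.08), a 1.19-fold lower value in oral mucosa. For miR-23b-3p the spots read 11276 and 10638 in skin and 12473 and 12209 in oral mucosa, with means of 10957 ± 451 and 12341 ± 187. Its VSN difference was -0.29 (SD 0.06), or 1.22-fold lower. Neither guide came near the 2-fold rule, although the spots of the 2 arrays were apart for both.

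Set against each other, the difference of miR-23b-3p was 0.04 below that of miR-23a-3p (gap -0.04, combined SD 0.10). Taken at each repeat position separately the gap was -0.08 and 0.00. Over VSN and 6 other ways of treating the arrays it stayed between -0.04 and 0.00. A factor common to a whole array cancels in such a gap, so most of these ways could hardly move it. The surroundings of the spots differed between the arrays with the opposite sign to these guides. Detected probes within 3 rows and 3 columns of the miR-23a-3p spots had a median difference of 0.35 and those around miR-23b-3p one of 0.15. With these medians subtracted, a comparison chosen after the values were seen, miR-23a-3p was at -0.60 and miR-23b-3p at -0.43. The gap turned to 0.17, for which the combined SD of 0.10 is no measure, since it leaves out the spread of the subtracted medians. The gap without the subtraction was within its SD, so the values do not settle the order of the 2 miR-23 guides in their tissue difference.

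The miR-27 guides, known for restraining adipocyte formation, lay further apart on the VSN scale. The skin spots of miR-27a-3p read 4166 and 3969 and its oral mucosa spots 4541 and 5342, with means of 4068 ± 139 and 4941 ± 567. The ratio of the means was 1.21 and the VSN difference -0.18 (SD 0.17), close to its own spot error. The spots of miR-27b-3p read 3000 and 2862 in skin and 4581 and 5441 in oral mucosa, with means of 2931 ± 97.5 and 5011 ± 608. In scanner units all oral mucosa spots of miR-27b-3p lay above all its skin spots, as they did for the other guide arms. The ratio of its means was 1.71, above the scale of 1.37 between the arrays. Its VSN difference was 0.32 (SD 0.18), a 1.25-fold higher value in oral mucosa. It was the 1 detected member above 0, and it too stayed short of the size rule.

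The gap between the differences of miR-27b-3p and miR-27a-3p was 0.50 on the log2 scale, or 1.41-fold, with a combined spot SD of 0.25. At the first repeat position the gap was 0.49 and at the second 0.50, a comparison chosen after the values were seen. The spots of the 2 probes had deviated together, both reading higher at the second position of the oral mucosa array, so the gap varied less than either difference. Over VSN and the 6 other treatments the gap lay between 0.45 and 0.50, while the difference of miR-27b-3p itself ran from 0.32 to 0.77. Here too a factor common to a whole array cancels, so this narrow range was largely fixed in advance. In scanner units the ratio of the 2 ratios was 1.41, which restates the gap found with no normalization. The detected probes around the miR-27b-3p spots, within the same distance, had a median difference of 0.28 and those around miR-27a-3p one of 0.12. With these subtracted the gap was 0.33, and miR-27b-3p was at 0.04 and miR-27a-3p at -0.29. How far each probe also reads the other RNA of its pair was not measured.

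For miR-24-3p, the guide with a part in keratinocyte differentiation, the skin spots read 7357 and 7206 and the oral mucosa spots 8245 and 9053. The means were 7282 ± 107 and 8649 ± 571, a ratio of 1.19. The VSN difference was -0.21 (SD 0.10), or 1.16-fold lower in oral mucosa, which is the median of the 5 guides. The detected probes around its spots had a median of -0.19, and with that subtracted the difference of miR-24-3p was -0.02. Since both clusters encode this sequence, its probe pools their products, and the part of each cluster was not measured.

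**Figure D3:**
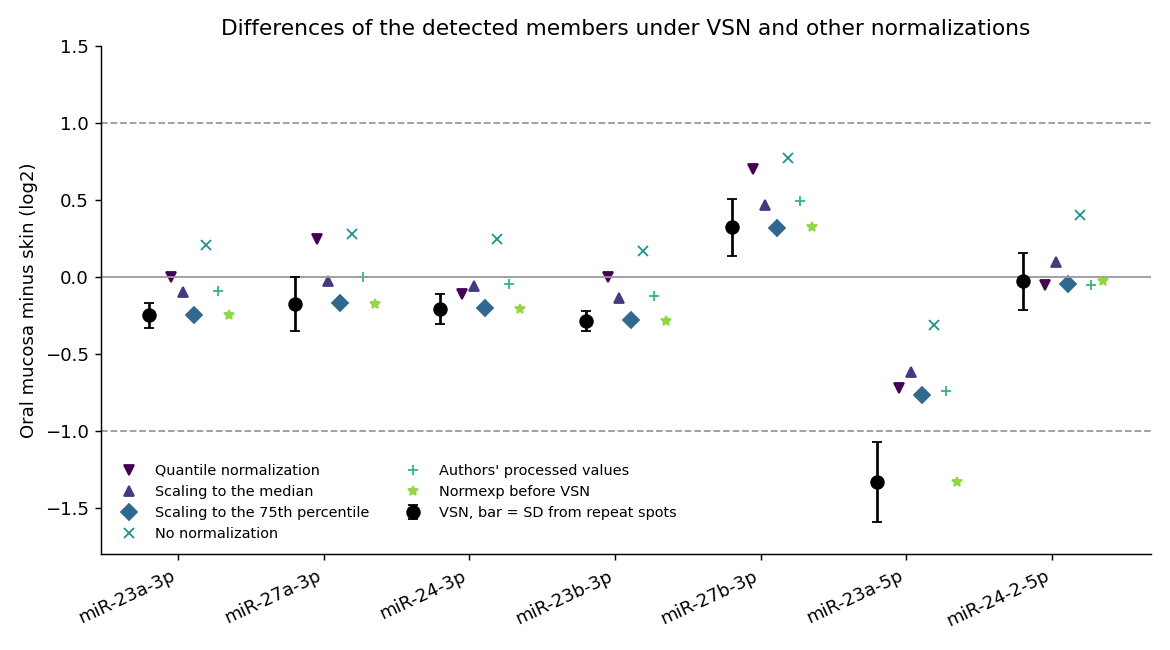
Difference of each detected member, oral mucosa minus skin in log2 units, under VSN (black circles, bars are the SD from repeat spots) and under 6 other treatments of the arrays (coloured symbols), with dashed lines at the size rule of 1. MiR-27b-3p lies above 0 under all 7, from 0.32 to 0.77, and miR-23a-5p passes the rule with VSN alone or after normexp and reads -0.31 with no normalization.

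The opposite arms were dim or not detected. MiR-24-2-5p, from the a cluster, read 222 and 202 in skin and 265 and 297 in oral mucosa, with means of 212 ± 14.4 and 281 ± 22.7. Its VSN difference was -0.03 (SD 0.18), with spots that overlapped between the arrays, and 0.16 with the median of its surroundings subtracted. The gap to its guide miR-24-3p was 0.18 (SD 0.21), within the error of the spots. MiR-24-1-5p, the matching arm of the b cluster, read 46.6 ± 0.19 in skin and 55.9 ± 0.76 in oral mucosa, below the limit on both arrays. MiR-27a-5p read 39.9 ± 1.12 and 47.1 ± 6.44, and miR-27b-5p 47.2 ± 0.72 and 57.9 ± 7.46. These 3 arms gave no difference, and 4 of the 8 planned pairs of members had no value for that reason. A low probe signal does not show that an arm is absent.

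MiR-23a-5p was the 1 member past the size rule. Its skin spots read 103 and 93.5 and its oral mucosa spots 75.7 and 82.4, so the skin spots lay above the oral mucosa spots even before scaling. The means were 98.0 ± 6.42 and 79.0 ± 4.72, which is 1.64 times the skin limit and 1.10 times the oral mucosa limit. The VSN difference was -1.33 (SD 0.26), a 2.51-fold lower value in oral mucosa. Its guide partner miR-23a-3p, cut from the same Mir23a hairpin, differed by -0.25, and the gap between the arms was -1.08 (combined SD 0.27). At the 2 repeat positions the gap was -1.35 and -0.82. With the surroundings subtracted the difference of miR-23a-5p was -1.48 and the gap -0.88.

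So close to the background the size of the miR-23a-5p difference rests on the fitted offsets of 37.9 for skin and 46.3 for oral mucosa. It was -0.76 with scaling to the 75th percentile, -0.74 with the authors' processed values, -0.62 with scaling to the median, -0.72 after quantile normalization and -0.31 with no normalization, and it passed the size rule under none of these 5. Its direction was the same in each. These 5 settings shrink the difference of a dim probe, so they are a weak check of its size. The processed values were 75 in skin and 25 in oral mucosa, more than 2-fold apart before 50 was added to each for the log. The other settings used raw signals with the background left in. Among the 131 other detected probes whose brighter array read below 150, 19.1% passed the size rule and 11.5% were lower in oral mucosa by it. The target of miR-23a-5p holds the run GGGG, as do those of 10.8% of all probes. Of the 84 other detected probes with that run, 23.8% were lower in oral mucosa by the rule and 3.57% higher, and of the 471 without it 13.2% and 15.7%. The dim and GGGG comparisons were chosen after the values were seen, and their part in the miR-23a-5p result was not tested.

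The loci carry further probes outside the 10 members. MiR-23b-5p, the opposite arm of Mir23b, and 3 products of Mir3074-1 and Mir3074-2, which are annotated on the minus strand over the miR-24 precursors, were detected on neither array. They read from 38.6 to 48.2 in skin and from 47.4 to 54.5 in oral mucosa. MiR-3074-5p is complementary to miR-24-3p over 20 of its 22 bases, the opposite strand of the same stretch.

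Other bright probes give a scale for the guide arms. Among the 58 other probes above 1000 on both arrays, chosen for signal after the values were seen, the median difference was -0.17, with 25th and 75th percentiles of -0.48 and 0.16. Of these 58, 11 (19.0%) passed the size rule, against 0 of the 5 guide arms, and 13 lay above miR-27b-3p. Of all 394 probes detected on both arrays, 33.0% had a difference no larger in size than that of miR-27b-3p.

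**Figure D4:**
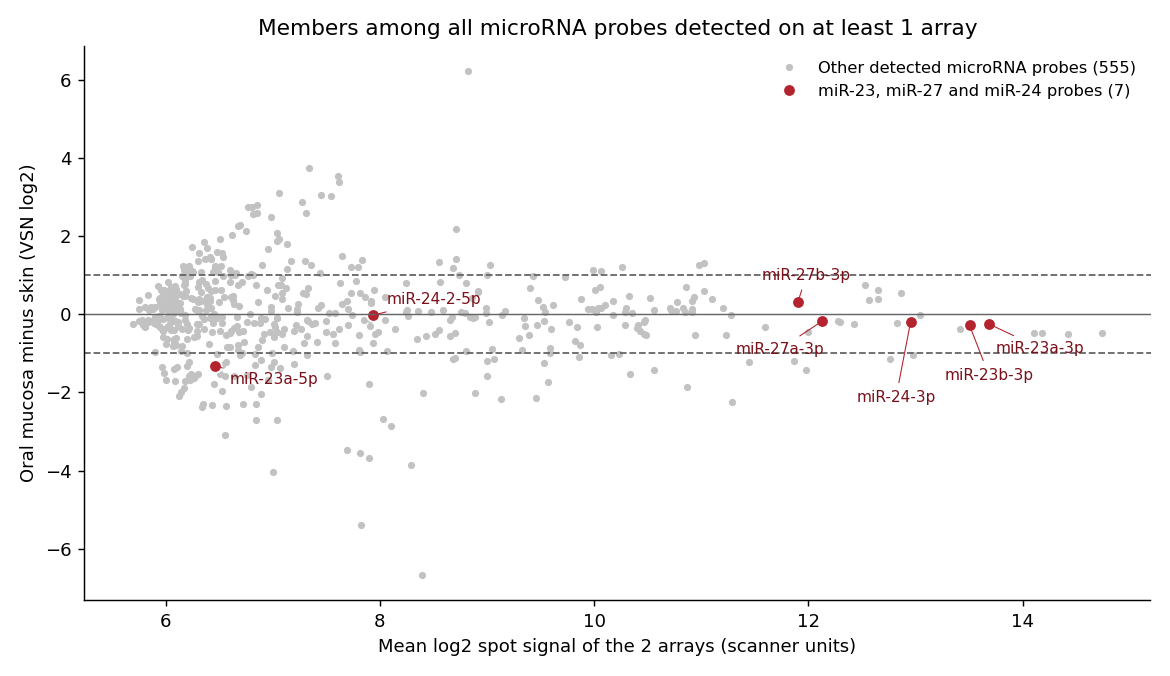
Difference (oral mucosa minus skin, VSN log2) against mean log2 spot signal of the 2 arrays for the 562 probes detected on at least 1 array, with the 7 detected members in red and dashed lines at the size rule of 1. The guide arms lie at the bright end between -0.29 and 0.32, and miR-23a-5p lies at the dim end at -1.33.

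Other pairs of microRNAs that differ at 1 base give a scale for the miR-23 and miR-27 pairs, again chosen after the values were seen. There were 22 such pairs of equal length with both probes detected on both arrays, the members' pairs included. The gap between the differences of the 2 probes had a median size of 0.35 and ran from 0.01 to 1.91, the latter between miR-29a-3p and miR-29c-3p. The miR-27 gap of 0.50 was exceeded by 7 pairs, and 1 pair, miR-103-3p and miR-107-3p, was closer than miR-23a-3p and miR-23b-3p. Some of these pairs have a spot in the first 2 columns at the edge of the array, which one of the alternatives leaves out, and no member has one. Over the 14 pairs without such a spot the median size was 0.31 and 3 exceeded the miR-27 gap.

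**Figure D5:**
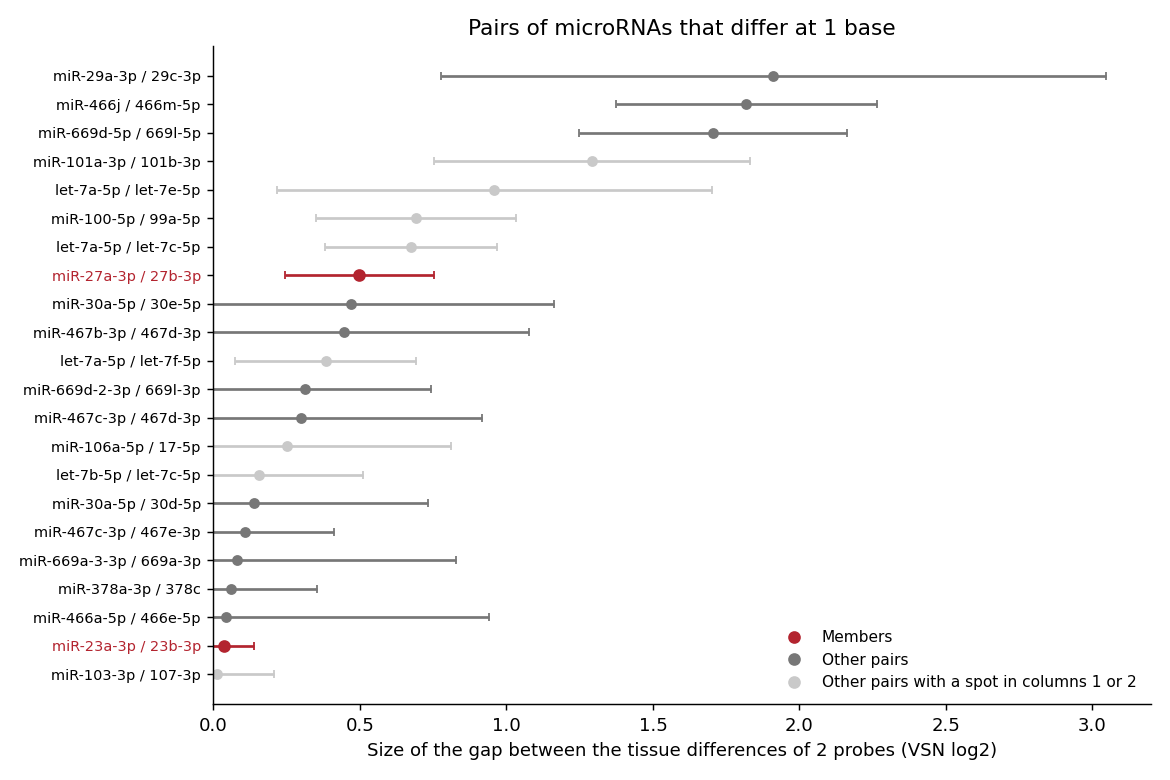
Size of the gap between the tissue differences of 2 microRNAs that differ at 1 base, in VSN log2 units, for 22 pairs, with bars of 1 combined SD from repeat spots cut at 0 and pale points for pairs with a spot in the first 2 columns. The miR-27 pair lies at 0.50 with 7 pairs above it, and the miR-23 pair at 0.04 with 1 pair below it.

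The sign of the small differences followed the scaling. With no normalization the median of all detected probes was 0.40, all 5 guide arms were above 0, miR-23b-3p being lowest at 0.17, and the 102 probes past the rule split into 80 higher and 22 lower in oral mucosa, against 77 and 83 with VSN. With quantile normalization miR-23a-3p and miR-23b-3p were at 0.00 and miR-27a-3p at 0.25. Relative to the median of all detected probes, miR-27b-3p was the 1 guide above it, and the other 4 below, under VSN and under 12 of the 13 alternatives. The exception was quantile normalization, where 4 guides were above. A lower level of miR-23a-3p, miR-23b-3p, miR-24-3p or miR-27a-3p in oral mucosa is thus a statement relative to all detected probes. With VSN these 4 lay between the median of -0.17 and the 25th percentile of -0.48 of the 58 other probes above 1000 on both arrays.

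Several lists of cell type markers differed between the arrays, while others did so in few members or none. Summed signals are given in scanner units, from which neither background nor the scale of 1.37 between the arrays has been taken out. They include probes that were not detected. Bright probes dominate some sums, while background makes up much of the sums of dim lists. The skin sums of the endothelial and white blood cell lists come from undetected probes alone. All 7 keratinocyte microRNAs (miR-203-3p, miR-205-5p and the miR-200 family) were detected on both arrays, with a summed signal of 49225 in skin and 48779 in oral mucosa, 1 of them higher and 1 lower in oral mucosa by the size rule. On the VSN scale 5 of the 7 were below 0, with a median difference of -0.48. Of 5 mesenchymal microRNAs all 5 were higher in oral mucosa by the rule, with a summed signal of 516 in skin and 1871 in oral mucosa, and miR-143-3p was not detected in skin. Of the 2 endothelial arms, miR-126a-3p was higher by the rule but reached the limit in oral mucosa alone. MiR-126a-5p reached it on neither array, and the sum was 81.6 and 200.2. The vascular pair miR-221-3p and miR-222-3p summed to 514 and 1567, both higher by the rule. Of 3 red blood cell probes, miR-451a was higher by the rule and miR-144-3p and miR-144-5p were not detected, with a sum of 141 and 3154. Of 3 white blood cell probes, miR-150-5p was higher by the rule but reached the limit in oral mucosa alone. MiR-223-3p and miR-155-5p were not detected, and the sum was 140 and 353. Of 4 skeletal muscle probes 0 passed the rule and miR-1a-3p was not detected, with a sum of 297 and 428. The part of these cell types in the members' values was not tested.

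The 3 other microRNAs detected on both arrays whose differences lay nearest to the guide median of -0.21 were miR-467b-3p, miR-6926-5p and miR-6769b-5p. For miR-467b-3p the difference was -0.21 (SD 0.18), from a signal of 1297 in skin and 1543 in oral mucosa. The other two read between 62.9 and 95.3, near the limits, with SDs of 0.42 and 0.57. Likeness here is the gap between differences over 2 arrays, and 25 of the 387 candidates lay within 0.05 of the guide median.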

How the data were processed

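The raw files that the authors deposited give the Cy5 intensity of all 3968 spots of an array as scanned, with no background subtracted and no normalization. A second table holds 1 processed intensity per microRNA and array, with a median of 4 for each, whose background step, scaling and centring are not given in the sources used here. The members and lists were chosen with earlier results of these data known.

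Repeat spots were averaged. VSN, which the study's methods name, was written in Python after its published description, with 15 starts and trimming of the worst-fitting probes so that 90% stayed in each of 5 signal slices, the dimmest being kept whole. It was tested on simulated data. Where 1 array alone detected a probe, its value on the other was not let below the lowest detected signal there. Control spots served only for the detection limit and the normexp fit. Alternatives were no normalization, quantile normalization, scaling to the 75th percentile or the median, processed values as log2(value + 50), normexp with an offset of 50, limits of 2 and 5 SD, no filter, detection on both arrays, single spots, the array without columns 1 and 2, and thresholds of 1.5-fold and 4-fold. Subtracting the surroundings and gaps per position were added after seeing the data. Named were the members, other probes of their loci or seeds, marker lists and the 3 nearest patterns. The number of arrays limits the precision. Software was Python 3.11.15, numpy 2.4.6, scipy 1.17.1, pandas 2.3.3, matplotlib 3.10.9, R 4.3.3 and limma 3.58.1.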

Additional observations from a re-analysis of the deposited data

How the results depend on the processing

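No paired analysis was possible because no group holds more than 1 array. The count of members past the size rule, 1 with VSN, was 0 with no normalization, scaling to the 75th percentile, scaling to the median, quantile normalization, the processed values of the authors and the 4-fold threshold, and 1 under the other 9 alternatives run for it. The processed values entered with 50 added, and for miR-23a-5p they were 75 in skin and 25 in oral mucosa without it. Background left in the raw signals likewise shrinks the difference of this dim probe under the other normalizations with a count of 0. The median of the detected members, -0.21 with VSN, was 0.00 with quantile normalization and 0.25 with no normalization, and between -0.26 and -0.05 under the other 11 run. Of 562 detected probes 160 passed the rule with VSN. Of the same 562 it was 85 with scaling to the 75th percentile or the median and 80 with quantile normalization. It was 87 with the processed values and 102 with no normalization. With VSN and no detection filter it was 577 of 1892 probes, and 104 of 394 when detection on both arrays was asked. Minus the surroundings, the gap of the miR-27 guides was 0.33 and that of the miR-23 guides 0.17. Under the other settings run they lay between 0.45 and 0.50 and between -0.08 and 0.00. Scaling of a whole array cancels in these gaps, so most of those settings could hardly move them. MiR-23a-5p kept its direction in all, from -1.56 with the first spots alone to -0.31 with no normalization. Signal over background limits the opposite arms, and single arrays per tissue leave the spread between animals unmeasured.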
